A study of Mus musculus with 12 samples.

Results

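The 6 genes Snai1, Snai2, Twist1, Twist2, Zeb1 and Zeb2 encode the transcription factors best known for driving epithelial cells towards a mesenchymal state. They were picked by gene symbol from the 54134 genes of the raw count table, where each symbol had 1 gene identifier, and all 6 passed the filter on low counts together with 15585 genes in all. The RNA came from inguinal white adipose tissue (iWAT), the subcutaneous depot of the groin, of 12 male C57BL/6J mice. All mice carried an adeno-associated virus (AAV) of serotype 8 with the thyroxine binding globulin (TBG) promoter, which is active in hepatocytes, so that the transgene was directed to the liver and not to the tissue sequenced. The 6 AAV-GFP mice received the vector for green fluorescent protein, and the 6 AAV-Notum mice received the vector for mouse Notum, a secreted carboxylesterase that inactivates Wnt proteins. Each mouse was injected at 8 weeks of age with 1e12 genome copies, was kept for another 4 weeks on chow, which is low in fat, was fasted for 4 h and was sampled at 12 weeks of age, and each library held the RNA of a single mouse. The comparison asks whether this gene set differed in iWAT when hepatic Notum was raised.

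The Snai proteins are zinc finger repressors that bind the E-box CAGGTG in promoters such as that of the E-cadherin gene Cdh1, the Zeb proteins bind like sites through zinc finger clusters at both ends, and the Twist proteins are basic helix-loop-helix factors that bind E-boxes as dimers with E proteins such as Tcf3. In adult adipose tissue, fibroblasts, pericytes, endothelial cells and immune cells are known to transcribe several of them, and Twist1 is also known from adipocytes. SNAI1 has been described as a repressor of Pnpla2, the gene of adipose triglyceride lipase, and Snai1 itself is a known target of canonical Wnt signaling.

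The 250 bases before the annotated start are printed for Snai1 and Twist2, the members with the lowest p-values in the comparison, and for the lipase gene Pnpla2. Capitals mark every match, on either strand, to the E-box CAGGTG (reverse CACCTG), to the E-box CATCTG (reverse CAGATG), which Twist dimers are known to bind, and to CTTTGT or CTTTGA (reverse ACAAAG or TCAAAG), the core read by the TCF factors of the Wnt pathway. The sequences are those of RefSeq (GRCm38.p6), on the plus strand, from chr2:167537945-167538194 for Snai1, chr1:91801211-91801460 for Twist2 and chr7:141454938-141455187 for Pnpla2.
Snai1: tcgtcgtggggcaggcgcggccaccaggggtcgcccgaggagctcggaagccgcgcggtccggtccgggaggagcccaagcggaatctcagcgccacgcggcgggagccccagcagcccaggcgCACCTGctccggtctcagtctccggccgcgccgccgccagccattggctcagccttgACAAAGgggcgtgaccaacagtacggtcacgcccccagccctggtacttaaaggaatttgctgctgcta
Twist2: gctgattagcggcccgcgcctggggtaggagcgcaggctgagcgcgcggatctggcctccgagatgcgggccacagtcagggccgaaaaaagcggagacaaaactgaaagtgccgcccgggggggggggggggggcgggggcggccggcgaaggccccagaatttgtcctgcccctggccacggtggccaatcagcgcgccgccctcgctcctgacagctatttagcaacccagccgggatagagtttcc
Pnpla2: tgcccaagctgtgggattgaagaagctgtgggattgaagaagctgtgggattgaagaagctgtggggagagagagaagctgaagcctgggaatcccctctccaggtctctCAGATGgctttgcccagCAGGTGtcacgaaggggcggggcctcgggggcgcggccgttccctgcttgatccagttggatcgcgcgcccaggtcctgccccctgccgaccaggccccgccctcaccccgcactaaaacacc
The Snai1 window holds CACCTG from 126 bases before the start and ACAAAG from 69 bases before it, and the Pnpla2 window holds CAGATG from 140 and CAGGTG from 123 bases before the start. Of the 32851 promoter windows of this length in the table, 17.2% hold CAGGTG, 14.4% CATCTG, 16.5% CTTTGT and 13.8% CTTTGA on either strand, so each motif is common. In the windows of Twist1 and Twist2 no match was found, and of the 4 Zeb2 windows 1 held ACAAAG. The table held windows for 4 of the 6 members. A match is a description of letters and no evidence of binding.

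Total counts per mouse ran from 14711113 to 21618860, and the RNA integrity number from 5.7 to 7.6. The 12 adipocyte markers, such as Adipoq and Plin1, were all measured and together took 38828 to 86553 CPM (counts scaled to library size), so the defining markers of the labelled tissue were present. AAV-GFP mice S_2011 and S_2014 stood apart with a mean of 15 B and T lymphocyte markers of 0.19 and -0.47 on the log2 CPM scale, against 3.71 to 7.17 in the other 10 mice, and the members' fold changes and ratios are also given without them. AAV-GFP mouse S_2011 also had the lowest RNA integrity number, and the RNA of AAV-GFP mouse S_2012 was isolated 20 days after that of the other 11. Notum itself ran from 0.0595 to 0.995 CPM in iWAT of AAV-GFP mice and from 0.457 to 29.3 CPM in AAV-Notum mice, which does not test the liver transgene. CPM are shares of a library, and in bulk tissue fewer cells of a type and less RNA per cell cannot be told apart.

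No member passed an adjusted p of 0.05 in edgeR's quasi-likelihood test with Benjamini-Hochberg adjustment, a threshold that 0.0513% of the genes tested passed in either direction. At an unadjusted p under 0.05, 2 of the 6 members, Twist2 and Snai1, were lower in AAV-Notum mice, against 9.54% of all genes, and 0 of 6 were higher, against 4.64%. In none of the 6 were the groups free of overlap, as they were with AAV-Notum below in 0.693% and above in 0.398% of all genes. With DESeq2, 0 of 6 had an adjusted p under 0.05, where 2.32% of its genes were called lower, and the same pair were under 0.05 before adjustment. The median log2 fold change over all genes was 0.0077.

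**Figure D1:**
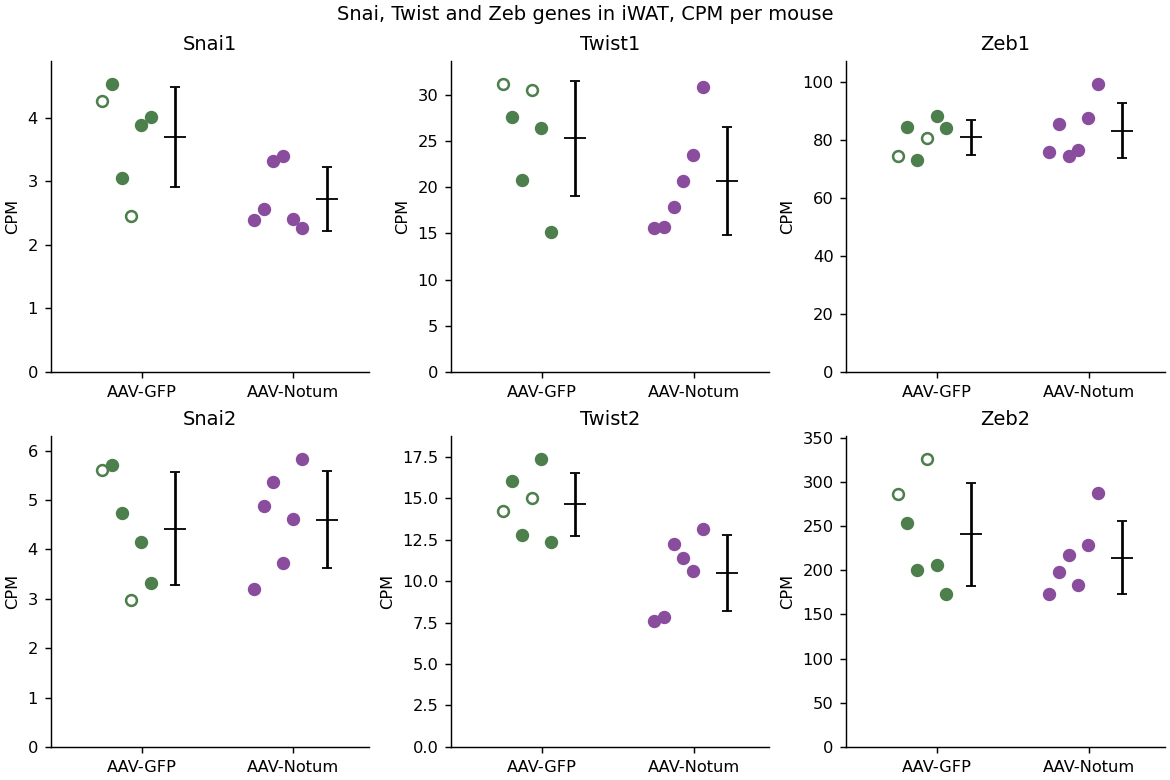
CPM of each member (y axis, from 0) in each mouse, with the mean and SD of 6 mice beside the points of each group. Open points are the 2 AAV-GFP mice low in lymphocyte markers. For Twist2, 5 of 6 AAV-Notum mice lie below every AAV-GFP mouse, for Snai1 3 of 6 do, and for Snai2, Zeb1 and Zeb2 the ranges largely coincide.

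Among the Snai genes, Snai1 had the lower unadjusted p, and neither gene passed the adjusted threshold. Snai1 (ENSMUSG00000042821), on chromosome 2 of GRCm38 from 167538195 to 167542814, encodes Snail, the founding E-cadherin repressor. Its level was 2.44 CPM in the lowest AAV-GFP mouse, 3.94 at the median and 4.53 in the highest, and 2.27, 2.48 and 3.39 CPM in the AAV-Notum mice. Each of the 6 AAV-Notum mice lay under the mean of the AAV-GFP group and 3 lay below all of its mice, and the lowest AAV-GFP level was that of mouse S_2014. The means were 3.69 ± 0.791 (SD, n = 6) and 2.72 ± 0.50 CPM (SD, n = 6), which is a change of -0.44 on the log2 scale (standard error, SE, 0.18, 95% interval -0.83 to -0.046, unadjusted p = 0.0314, adjusted p = 0.310 over 15585 genes from edgeR). The two-sided exact permutation test on mean log2 CPM gave p = 0.0433, where the smallest p that 6 mice against 6 allow is 0.00216. Snai1 rested on 35 to 84 reads per mouse. The estimate stayed between -0.53 and -0.35 in all 27 alternatives, but its unadjusted p was under 0.05 in 4 of the 12 fits that left out a mouse and above it without AAV-GFP mouse S_2011, S_2012, S_2021 or S_2022 or AAV-Notum mouse S_2031, S_2032, S_2041 or S_2042, up to an unadjusted p of 0.0770 without S_2012, which leaves a single isolation date. Without the 2 mice low in lymphocyte markers the estimate for Snai1 was -0.50 with an unadjusted p of 0.0215.

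Snai2 (ENSMUSG00000022676, chromosome 16, 14705852 to 14709385) encodes Slug, the paralogue of Snail that is known from fibroblasts and neural crest. Its level was 2.98, 4.45 and 5.72 CPM in the lowest, median and highest AAV-GFP mouse and 3.20, 4.74 and 5.83 CPM in AAV-Notum mice. The ranges overlapped almost fully and the highest mouse of all was AAV-Notum mouse S_2042. The means were 4.42 ± 1.14 and 4.60 ± 0.988 CPM (SD, n = 6 each), which on the log2 scale is a change of 0.06 (SE 0.20, 95% interval -0.39 to 0.50, adjusted p = 0.891 from edgeR), on 50 to 100 reads per mouse. The interval leaves room for a difference in either direction, though not for one as low as that of Snai1. Without the 2 mice low in lymphocyte markers it was 0.034.

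The ratio of the Snai paralogues within each library does not depend on library size. The log2 ratio of Snai1 to Snai2 reads was -0.63, -0.31 and 0.27 in the lowest, median and highest AAV-GFP mouse and -1.35, -0.80 and -0.14 in AAV-Notum mice. In AAV-Notum mice 4 of 6 ratios lay under every AAV-GFP ratio and 5 of 6 under the AAV-GFP mean. The difference of the means was -0.49 (-0.25 ± 0.30 against -0.74 ± 0.43, SD, n = 6 each, two-sided exact permutation p = 0.0411, 0.123 after adjustment over the 3 paralogue ratios). Without the 2 mice low in lymphocyte markers it was -0.54 with an exact permutation p of 0.0619. The exact permutation p stayed under 0.05 in 3 of the 12 runs that left out a mouse, those without S_2013, S_2031 or S_2034, and reached 0.0931 without S_2022.

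Among the Twist genes, Twist2 was lower in AAV-Notum mice at an unadjusted p under 0.05 and Twist1 lay in the same direction within the spread between mice, and neither passed the adjusted threshold. Twist2 (ENSMUSG00000007805, chromosome 1, 91801461 to 91848028), also called Dermo1, is known from dermal and mesenchymal progenitors. Its level was 12.4, 14.6 and 17.4 CPM in the lowest, median and highest AAV-GFP mouse and 7.62, 11.0 and 13.1 CPM in AAV-Notum mice. AAV-Notum mice S_2031 and S_2032 were the lowest of all, and AAV-Notum mouse S_2042 was the only AAV-Notum mouse inside the AAV-GFP range. The means were 14.6 ± 1.91 and 10.5 ± 2.29 CPM (SD, n = 6 each), which on the log2 scale is a change of -0.48 (SE 0.15, 95% interval -0.81 to -0.15, unadjusted p = 0.00759, adjusted p = 0.211 from edgeR's quasi-likelihood test). The two-sided exact permutation p was 0.00866. The adjusted p was 0.0598 with DESeq2 and ran up to 0.623 over the 27 alternatives, and the unadjusted p was under 0.05 in 26 of them, including all 12 that left out a mouse. Without the 2 mice low in lymphocyte markers the estimate for Twist2 was -0.49 with an unadjusted p of 0.0217.

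The level of Twist2 depended on which table was read. It had 150 to 376 reads per mouse in the raw table and 76 to 197 behind the normalized table, 56.7% of the total, while for the other 5 members the reads behind the normalized table were 99.7% to 102% of those in the raw table. Twist2 shares 1477 exon bases with the antisense gene Gm29100, and whether the counting used strand is not given in the sources used here. The log2 fold change on the reads behind the normalized table was -0.45 with an unadjusted p of 0.0416.

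Twist1 (ENSMUSG00000035799, chromosome 12, 33957671 to 33959829), known as a regulator of mesoderm and cranial bone and as a brake on brown fat metabolism, had 15.1, 27.0 and 31.2 CPM in the lowest, median and highest AAV-GFP mouse and 15.6, 19.3 and 30.9 CPM in AAV-Notum mice. The high AAV-GFP mice were S_2011 and S_2014, which were those low in lymphocyte markers. The high AAV-Notum mouse was S_2042, which stood apart in skeletal muscle markers. The means were 25.3 ± 6.20 and 20.7 ± 5.83 CPM (SD, n = 6 each), which on the log2 scale is a change of -0.29 (SE 0.21, 95% interval -0.74 to 0.16, adjusted p = 0.487 from edgeR), on 246 to 573 reads per mouse. Without AAV-GFP mice S_2011 and S_2014 it was -0.12 with an unadjusted p of 0.589, and without AAV-Notum mouse S_2042 it was -0.44 with an unadjusted p of 0.0413. The log2 ratio of Twist1 to Twist2 reads was 0.76 ± 0.30 in AAV-GFP and 0.97 ± 0.24 in AAV-Notum mice (SD, n = 6 each), a difference of 0.21 with a two-sided exact permutation p of 0.212, and of 0.37 with p = 0.0429 in the exact permutation test without the 2 mice low in lymphocyte markers.

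The Zeb genes carried the most reads of the set, and neither passed the test. Zeb1 (ENSMUSG00000024238, chromosome 18, 5591860 to 5775467) had 73.2, 82.7 and 88.5 CPM in the lowest, median and highest AAV-GFP mouse and 74.7, 81.2 and 99.4 CPM in AAV-Notum mice. It varied least among the members, with a coefficient of variation of 7.42% in AAV-GFP and 11.4% in AAV-Notum mice, against 13.1% to 28.2% for the other 5. The means were 81.1 ± 6.01 and 83.3 ± 9.52 CPM (SD, n = 6 each), which on the log2 scale is a change of 0.04 (SE 0.084, 95% interval -0.14 to 0.22, adjusted p = 0.803 from edgeR). A difference of the size seen for Snai1 or Twist2 lies outside this interval. Without the 2 mice low in lymphocyte markers it was 0.0091.

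Zeb2 (ENSMUSG00000026872, chromosome 2, 44983632 to 45117395), also called Sip1, is known from neural crest, macrophages and other immune cells. Its level was 173, 230 and 326 CPM in the lowest, median and highest AAV-GFP mouse and 173, 207 and 287 CPM in AAV-Notum mice. The highest were AAV-GFP mouse S_2014, AAV-Notum mouse S_2042 and AAV-GFP mouse S_2011. The means were 241 ± 58.2 and 214 ± 41.1 CPM (SD, n = 6 each), which on the log2 scale is a change of -0.17 (SE 0.17, 95% interval -0.54 to 0.20, adjusted p = 0.589 from edgeR), on 2810 to 5466 reads per mouse. Without the 2 mice low in lymphocyte markers it was 0.04. The antisense gene Zeb2os, with 168 to 288 reads per mouse, shares 653 exon bases with Zeb2. The log2 ratio of Zeb1 to Zeb2 reads was -1.54 ± 0.39 in AAV-GFP and -1.35 ± 0.16 in AAV-Notum mice (SD, n = 6 each), a difference of 0.19 (two-sided exact permutation p = 0.294) that was -0.03 without the same 2 mice.

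Levels between genes were compared per exon length, as CPM divided by the kilobases of merged exons (RPKM). In AAV-GFP mice Twist1 was the highest at 15.5 ± 3.81 RPKM, before Zeb2 at 12.1 ± 2.92, Zeb1 at 7.90 ± 0.586, Twist2 at 4.61 ± 0.601, Snai1 at 2.28 ± 0.488 and Snai2 at 2.19 ± 0.565 RPKM (SD, n = 6 each). Each of the first 4 steps of this order held in 6 of 6 AAV-GFP mice (two-sided exact sign-flip permutation p = 0.0312, the smallest that 6 mice allow, 0.0391 after adjustment over 5 neighbours). Snai1 and Snai2 did not differ beyond their spread, with Snai1 higher in 3 of 6 mice (exact permutation p = 0.688). In AAV-Notum mice the means were 12.7 ± 3.58 for Twist1, 10.7 ± 2.06 for Zeb2, 8.12 ± 0.928 for Zeb1, 3.30 ± 0.720 for Twist2, 1.68 ± 0.309 for Snai1 and 2.28 ± 0.489 RPKM for Snai2. There the steps from Zeb2 to Zeb1, from Zeb1 to Twist2 and from Twist2 to Snai1 held in 6 of 6 mice (exact permutation p = 0.0312 each, 0.0521 after adjustment), the step from Twist1 to Zeb2 in 5 of 6 (exact permutation p = 0.0938), and Snai1 was above Snai2 in 1 of 6 (exact permutation p = 0.0938).

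The step from Twist2 to Snai1 depended on the table. On the reads behind the normalized table Twist2 stood at 2.57 and Snai1 at 2.32 RPKM in AAV-GFP mice, with Twist2 the higher in 4 of 6 AAV-GFP mice (two-sided exact sign-flip permutation p = 0.188) and in 3 of 6 AAV-Notum mice (exact permutation p = 0.562). There the adjusted exact permutation p of the first 3 steps in AAV-GFP mice was 0.0521 each. The rank of Zeb2 depended on the length used. With the longest transcript (9124 bases) in place of merged exons (19942 bases), Zeb2 stood at 26.4 RPKM in AAV-GFP mice, above Twist1 at 15.5 RPKM. The annotation gives 29 transcripts of Zeb2 and 12 of Zeb1, against 1 each of Snai1, Snai2 and Twist1.

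**Figure D2:**
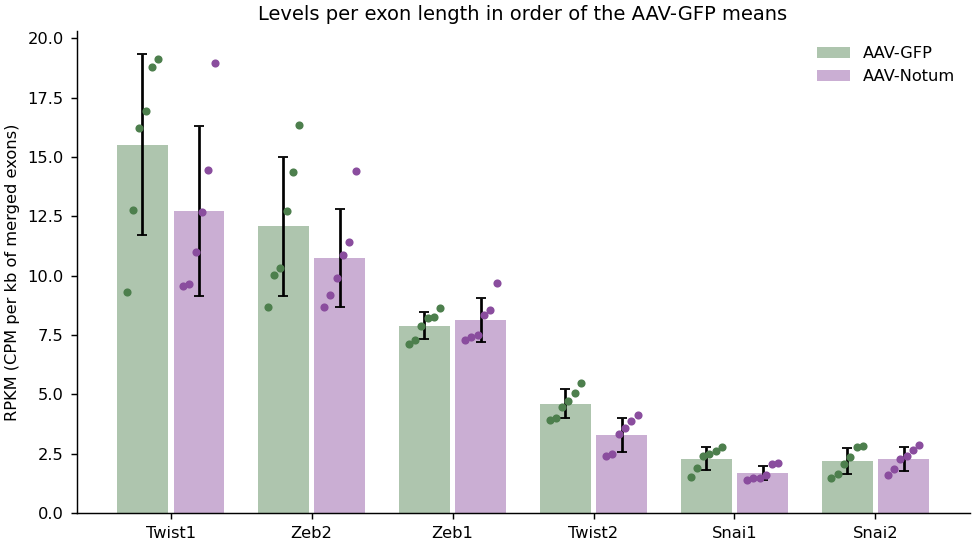
Level per exon length (y axis, RPKM on merged exons, from 0) of the 6 members in order of the AAV-GFP means. Bars are means of 6 mice, error bars SD and points single mice. Twist1 and Zeb2 are the highest and the Snai genes the lowest, near 2 RPKM in AAV-GFP mice.

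Among the 15 pairs of members, Twist1 and Zeb2 varied together. After subtracting group means, their log2 CPM had Pearson's r = 0.86 over 12 mice (permutation p = 0.00050, 0.00750 after adjustment over 15 pairs) and Spearman's rho = 0.90 (permutation p = 0.00025, adjusted 0.00375). The relation was r = 0.75 without the 2 mice farthest from the Twist1 median and r = 0.85 without those low in lymphocyte markers (permutation p = 0.0316 after adjustment). Twist1 and Twist2 had r = 0.71 and rho = 0.60 (permutation p = 0.0119 and 0.0496, adjusted 0.0892 and 0.372), r = 0.62 without the 2 farthest mice and r = 0.80 without those low in lymphocyte markers (permutation p = 0.0608 after adjustment). Snai2 and Zeb2 had r = 0.38 over all mice and r = 0.88 without the mice low in lymphocyte markers (permutation p = 0.0316 after adjustment). Snai1 had r between -0.34 and 0.37 with the other members.

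The genes whose group-centred pattern over the 12 mice was most like that of each member were taken from 14428 others with a mean of at least 1 CPM, so high values of r arise readily. They were Dcps, Rpusd4 and Mcoln1 for Snai1 (r = 0.90, 0.87 and 0.87), Pisd, Iqsec3 and Mmp27 for Snai2 (r = 0.92, 0.91 and 0.90), and Ppp1r3d, Afdn and Jkamp for Twist1 (r = 0.97 each). They were Aplf, Tead4 and Pdcl3 for Twist2 (r = 0.96, 0.93 and 0.93), Nrip1, Commd2 and Fam98a for Zeb1 (r = 0.93, 0.92 and 0.89), and Smim27, Borcs7 and Pde1a for Zeb2 (r = 0.98 each).

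Twist1, Twist2 and Zeb2 moved with markers of cell types across mice. Snai2 did so with fibroblast and progenitor markers over all 12 mice by Pearson's r, though not by Spearman's rho. The summed level of the 12 adipocyte markers ran from 45319 to 77943 CPM in AAV-GFP and from 38828 to 86553 CPM in AAV-Notum mice, that of the 12 endothelial markers from 960 to 1614 and from 851 to 1183 CPM, that of the 15 lymphocyte markers from 10.8 to 1865 and from 584 to 2548 CPM, and that of the 14 fibroblast and progenitor markers from 5565 to 8995 and from 4599 to 5783 CPM. Group-centred adipocyte marker means had r = 0.91 with Zeb2, 0.90 with Twist1 and 0.79 with Twist2 over 12 mice (Spearman's rho = 0.96, 0.92 and 0.65, permutation p of r after adjustment over 36 relations 0.00288, 0.00432 and 0.0292), and r = 0.87, 0.88 and 0.76 without the 2 farthest mice. In the 10 mice that were not low in lymphocyte markers the values were r = 0.90, 0.88 and 0.90 (adjusted permutation p = 0.0155, 0.0274 and 0.0274). Lymphocyte marker means had r = -0.87 with Zeb2 over 12 mice (rho = -0.91, adjusted permutation p = 0.00144, r = -0.83 without the 2 farthest) and r = -0.87 over the 10 mice (adjusted permutation p = 0.0155). Endothelial marker means had r = 0.81 with Zeb2 (rho = 0.86, adjusted permutation p = 0.0326, r = 0.89 without the 2 farthest) and r = 0.86 over the 10 mice (adjusted permutation p = 0.0247). Of the 36 relations 11 had an adjusted p under 0.05 over 12 mice and these 5 did so with and without the 2 mice. Snai1 had r = 0.73 with macrophage markers over 12 mice (rho = 0.57, adjusted permutation p = 0.0509 for r and 0.169 for rho), r = 0.34 without the 2 farthest and r = 0.43 over the 10 mice. For Zeb2 and macrophage markers r was -0.71 over 12 mice (adjusted permutation p = 0.0426), -0.31 without the 2 farthest and -0.76 over the 10 mice (adjusted permutation p = 0.0580). For Snai2 and fibroblast and progenitor markers r was, in the same order, 0.69 (adjusted permutation p = 0.0431), 0.46 and 0.77 (adjusted permutation p = 0.0580). Their rho over 12 mice was 0.59 (adjusted permutation p = 0.169).

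**Figure D3:**
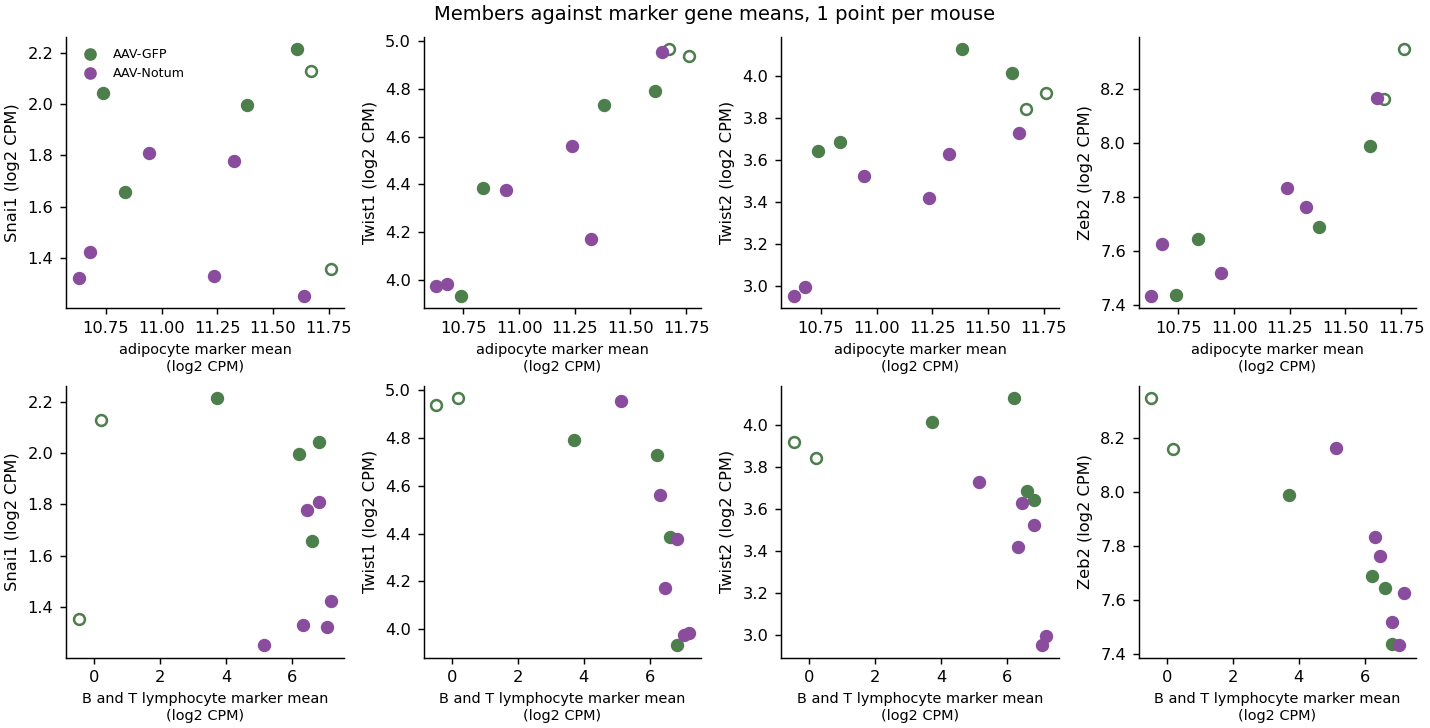
Log2 CPM of Snai1, Twist1, Twist2 and Zeb2 (y axes) against the mean log2 CPM of adipocyte markers (x axis, top) and of lymphocyte markers (x axis, bottom), 1 point per mouse, with the 2 AAV-GFP mice low in lymphocyte markers open. Zeb2 and Twist1 rise along the adipocyte marker mean in both groups, and Snai1 shows no such order (r = -0.05).

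A marker mean was then added as a covariate in edgeR. The log2 fold change of Snai1 was -0.51 with lymphocyte, -0.40 with macrophage, -0.35 with fibroblast, -0.44 with adipocyte and -0.40 with endothelial markers, and it missed 0.05 with fibroblast (unadjusted p = 0.0775) and endothelial markers (unadjusted p = 0.0867). That of Twist2 was -0.42, -0.50, -0.47, -0.37 and -0.30 in the same order, missing 0.05 for endothelial markers alone (unadjusted p = 0.0578). Twist1 moved to 0.01 with lymphocyte, -0.06 with adipocyte (unadjusted p = 0.533) and 0.06 with endothelial markers, but was -0.31 with macrophage and -0.30 with fibroblast markers. Zeb2 moved to 0.15 with lymphocyte, 0.02 with adipocyte and 0.14 with endothelial markers, but was -0.19 with macrophage and with fibroblast markers. With RNA integrity in the model in place of markers, the estimates were -0.44 for Snai1 (unadjusted p = 0.0463), 0.14 for Snai2, -0.16 for Twist1, -0.47 for Twist2 (unadjusted p = 0.0146), 0.010 for Zeb1 and -0.065 for Zeb2. The adipocyte and endothelial covariates were chosen after the data were seen. The part of cell content in the differences between groups was not tested beyond these fits.

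**Figure D4:**
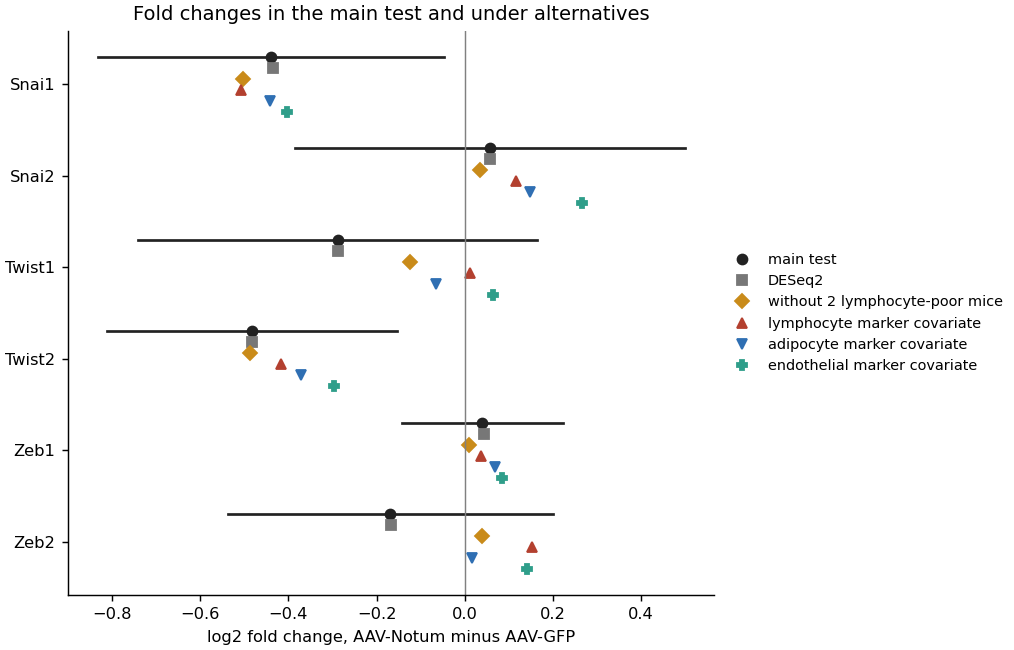
Log2 fold change of each member (x axis, AAV-Notum minus AAV-GFP) in the main test with its 95% interval and under 5 alternatives. Snai1 and Twist2 stay below 0 under each of those drawn, while Twist1 and Zeb2 come above 0 with lymphocyte or endothelial markers as a covariate.

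Of 25 tested partner and corepressor genes, which hold the E proteins, Id proteins, histone deacetylases and Polycomb subunits that the factors recruit or pair with, 1 was lower and 1 higher at an unadjusted p under 0.05, against 9.54% and 4.64% of all genes, and none had an adjusted p under 0.05 in edgeR, with a median log2 fold change of 0.05. Ajuba, a LIM protein that tethers Snail to corepressors, had 15.04 ± 6.05 CPM in AAV-GFP and 9.44 ± 1.74 CPM in AAV-Notum mice (SD, n = 6 each, log2 fold change -0.67, SE 0.24, unadjusted p = 0.0173). Suv39h1, a histone H3 lysine methyltransferase, had 20.6 ± 3.99 and 25.2 ± 2.47 CPM (log2 fold change 0.29, unadjusted p = 0.0371). Of 24 turnover regulators, the kinases and ubiquitin ligases that set the life span of these proteins, 1 was lower and 2 were higher at an unadjusted p under 0.05, with none under 0.05 after adjustment in edgeR and a median of -0.04 (-0.059 to 0.019 over the alternatives). Fbxw7, a ubiquitin ligase subunit, was higher (log2 fold change 0.24, unadjusted p = 0.0200), as was the ligase Trim21 (0.36, unadjusted p = 0.0456), and Loxl2, a lysyl oxidase known to stabilise Snail, was lower (-0.35, unadjusted p = 0.0450).

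Among 23 tested genes of the pathways known to induce the factors, 4 were lower and 0 higher at an unadjusted p under 0.05, against 9.54% and 4.64% of all genes, with none under 0.05 after adjustment in edgeR and a median log2 fold change of 0.03 (-0.066 to 0.053 over the alternatives). Tgfb3, a transforming growth factor beta ligand, had 17.9 ± 3.96 CPM in AAV-GFP and 11.5 ± 1.23 CPM in AAV-Notum mice (SD, n = 6 each, log2 fold change -0.64, SE 0.15, unadjusted p = 9.7e-04, adjusted p = 0.130). The receptor Notch3, which also marks pericytes, had 54.5 ± 5.58 and 43.4 ± 2.78 CPM (log2 fold change -0.33, adjusted p = 0.139). Epas1, the hypoxia factor HIF2A of endothelium and fat, was lower by a log2 fold change of -0.43 (unadjusted p = 0.0254) and Notch1 by -0.20 (unadjusted p = 0.0403). For each of these 4 genes, every one of the 6 AAV-Notum mice lay under the mean of the AAV-GFP group. The genes were named for their low p, so this adds no support.

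The next list held 25 tested genes that the factors are known to raise when epithelial cells turn mesenchymal. At an unadjusted p under 0.05, 9 of them were lower and 0 higher in edgeR, against 9.54% and 4.64% of all genes. A log2 fold change below 0 was found in 18 of the 25, and the median was -0.27, against 0.0077 over all genes. The list median ran from -0.30 to -0.18 over the alternatives. Lox, which cross-links collagen, had 96.5 ± 29.5 CPM in AAV-GFP and 44.1 ± 7.86 CPM in AAV-Notum mice, with no overlap between the groups (SD, n = 6 each, log2 fold change -1.13, adjusted p = 0.0847 from edgeR). In 2 of the 25 genes the groups did not overlap with AAV-Notum below, against 0.693% of all genes. Lox was named for its low p, which makes such a gap likelier. The fibronectin receptor subunit Itga5 had a log2 fold change of -0.49, smooth muscle actin Acta2 of -0.61, collagen I chain Col1a1 of -0.52 and vimentin Vim, an intermediate filament of mesenchymal cells, of -0.43 (adjusted p = 0.105, 0.164, 0.189 and 0.215 from edgeR). Vim had 1082 ± 228 CPM in AAV-GFP and 801 ± 50.3 CPM in AAV-Notum mice. Col1a1 and Col3a1 of this list are also fibroblast markers, Acta2 and Tagln are also smooth muscle markers, and of the marker lists 6 of 14 fibroblast, 3 of 10 smooth muscle and 5 of 12 endothelial genes were lower at an unadjusted p under 0.05.

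Other transcription factors of mesenchymal cells gave a like count. Of 28 tested, 9 were lower and 0 higher at an unadjusted p under 0.05, against 9.54% and 4.64% of all genes, none had an adjusted p under 0.05, 22 were below 0 and the median was -0.28. Over the alternatives the median ran from -0.41 without AAV-Notum mouse S_2042 to -0.11 with endothelial markers as a covariate. With lymphocyte markers as a covariate it was -0.15. Tead1, the DNA-binding partner of YAP, had 155 ± 33.2 CPM in AAV-GFP and 83.6 ± 26.4 CPM in AAV-Notum mice (SD, n = 6 each, log2 fold change -0.89, SE 0.20, adjusted p = 0.124 from edgeR). Its coactivators Yap1 and Wwtr1 had log2 fold changes of -0.48 and -0.53 (unadjusted p = 0.0251 and 0.0314). Klf4 (-0.55), a zinc finger factor of vessels and epithelium, and Hic1 (-0.65), a marker of mesenchymal progenitors, did not overlap between the groups. They were the 2 of the 28 tested with AAV-Notum below in this way, against 0.693% of all genes. Both were named for a low p, which makes such a gap likelier. Ebf2, a factor of beige and brown adipocyte precursors, had 54.4 ± 18.8 and 33.5 ± 11.9 CPM (log2 fold change -0.70, unadjusted p = 0.0233).

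Many of the genes that the factors repress in epithelia were too low in iWAT to be tested. Of 30 listed, 14 passed the filter on low counts, 1 was lower and 0 were higher at an unadjusted p under 0.05, against 9.54% and 4.64% of all genes, and the median log2 fold change was 0.15, which ran from -0.16 to 0.61 over the alternatives. Cdh1 had 0.560, 1.43 and 7.37 CPM in the lowest, median and highest AAV-GFP mouse and 1.06, 1.77 and 3.51 CPM in AAV-Notum mice (log2 fold change -0.06, SE 0.59, adjusted p = 0.964 from edgeR), on 10 to 126 reads, so that only a large change could have been seen. Jup, the desmosome and adherens junction protein plakoglobin, which is not restricted to epithelia, had 150 ± 44.1 CPM in AAV-GFP and 88.5 ± 12.2 CPM in AAV-Notum mice (SD, n = 6 each, log2 fold change -0.77, SE 0.19, unadjusted p = 0.00134, adjusted p = 0.140). Grhl1, a factor of epithelial differentiation, did not pass (log2 fold change -0.48, unadjusted p = 0.0862).

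Of 17 tested adipocyte genes tied to the factors, 2 were lower and 2 higher at an unadjusted p under 0.05, against 9.54% and 4.64% of all genes, and none passed after adjustment in edgeR, with a median of -0.05 that ran from -0.18 without S_2042 to 0.25 with endothelial markers as a covariate. Pnpla2, whose upstream window is printed above, had 2241, 3241 and 4649 CPM in the lowest, median and highest AAV-GFP mouse and 1849, 2448 and 3363 CPM in AAV-Notum mice. This difference did not exceed the spread of the mice (log2 fold change -0.33, SE 0.23, unadjusted p = 0.179), with 4 of 6 AAV-Notum mice under the AAV-GFP mean. Cebpb, an early adipogenic factor, was lower before adjustment (log2 fold change -0.56, unadjusted p = 0.00842), as was the histone deacetylase Hdac5 (-0.29, unadjusted p = 0.0217). Cidea, a lipid droplet protein of brown and beige adipocytes, had 37.7 ± 16.9 CPM in AAV-GFP and 80.4 ± 43.0 CPM in AAV-Notum mice (SD, n = 6 each, log2 fold change 1.09, SE 0.38, unadjusted p = 0.0143, adjusted p = 0.242). Acaca, the acetyl-CoA carboxylase of fatty acid synthesis, was higher by a log2 fold change of 0.72 (unadjusted p = 0.0470).

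**Figure D5:**
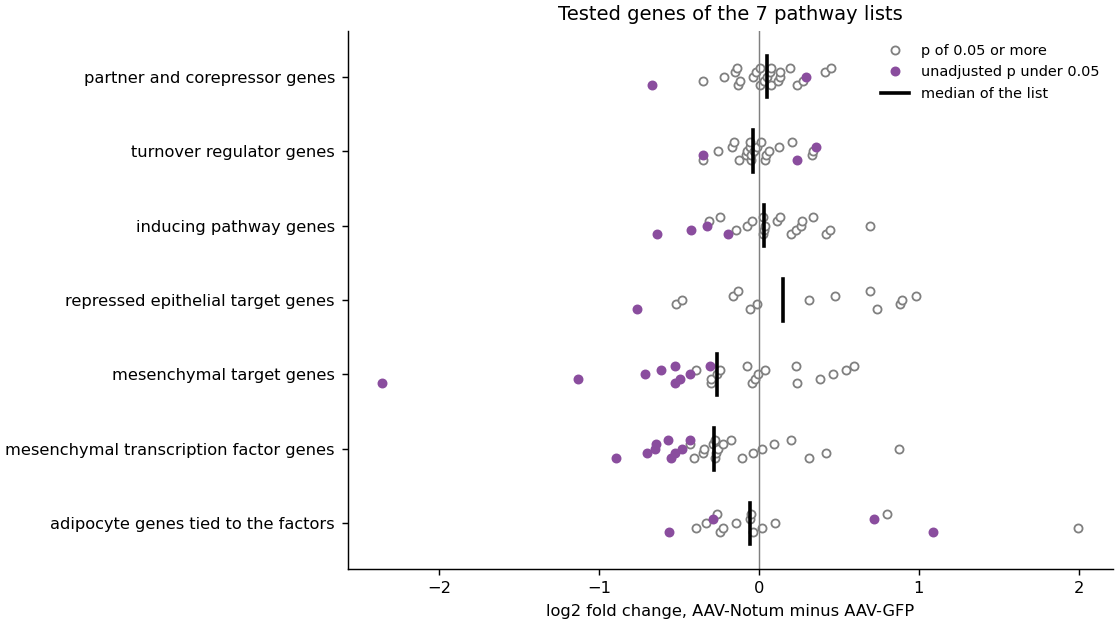
Log2 fold change (x axis, AAV-Notum minus AAV-GFP) of every tested gene of the 7 lists, 1 point per gene, filled where the unadjusted p is under 0.05, with a black bar at the median of each list. The medians of the mesenchymal targets (-0.27) and mesenchymal transcription factors (-0.28) lie below 0, and the other 5 lie between -0.05 and 0.15.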

How the data were processed

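Bulk RNA-seq libraries of iWAT from 12 mice (6 per group) were made with TruSeq kits, sequenced as 50-base single reads and mapped by the authors to mm10 with STAR 2.3.1. They deposited a table of raw counts per gene and a table of log2 values, log2(reads divided by a size factor, plus 1). The log2 values deposited by the authors gave back whole reads in 100% of cases (tolerance 0.1). The counting program, annotation and use of strand are not given in the sources used here. Groups came from the sample titles. Raw counts were filtered with filterByExpr (minimum count 10, total 15), TMM-normalized and tested two-sided with the quasi-likelihood test of edgeR 4.0.16 (R 4.3.3) over 15585 genes, Benjamini-Hochberg adjusted. CPM are on the TMM library size, log2 CPM carry a prior count of 2 and ratios a pseudocount of 0.5. Exact permutation tests of 6 mice against 6 enumerated all 924 assignments, and runs that left out mice had fewer. Sign-flip tests between members enumerated all 64 sign assignments. Correlations used 100000 permutations within groups (Python 3.11.15, numpy 2.4.6, scipy 1.17.1). Positions and lengths are GENCODE vM21 (GRCm38).

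The members and the lists of genes and markers were chosen with earlier results of these data known. Genes named are the 6 members, Pnpla2, Cdh1, Vim and Notum, from each list up to 6 genes of smallest p under 0.05 (at least 2 in every case), and the 3 genes most like each member. A gene that this rule names is not reported here. Alternatives were DESeq2 1.42.0, limma-voom (limma 3.58.1), size factors by RLE, robust fitting, filters of 1 read in all or 10 reads in every mouse, marker means or RNA integrity as covariates, the reads behind the log2 table, leaving out the 2 mice low in lymphocyte markers, and leaving out each mouse. On simulated counts of 15585 genes with 200 changed by a log2 fold change of 1, edgeR called 53.5% of those changed. Of its calls 6.14% were false, against 70.0% called and 20.9% false with DESeq2 and 52.5% and 7.08% with limma-voom. These counts were drawn independently for each gene from the dispersions that edgeR had estimated, so they do not rank the tools on the real mice. Depth was 14711113 to 21618860 counts per mouse. The mice are separate animals.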

Additional observations from a re-analysis of the deposited data

Results flagged for a closer look

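Dixon's 95% limit was applied to 30 sets of 6 mice (the members' CPM, the 3 paralogue ratios and 6 marker means, in each group). Chance flags about 1 set in 20, or 1.5 of the 30. In these sets 1 mouse lay farther from its group than the limit allows, which is no more than chance gives. It was AAV-GFP mouse S_2014, with a macrophage and myeloid marker mean of 4.99 on the log2 CPM scale against 5.82 to 6.09 in the other AAV-GFP mice. The same mouse had the lowest Snai1 and Snai2 and the highest Zeb2 levels of its group. Without it the log2 fold change of Snai1 was -0.53 and that of Snai2 -0.03.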

How the results depend on the processing

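Over 27 alternatives for each member, the log2 fold changes of Snai1 and Twist2 kept their sign and no member had an adjusted p under 0.05. Twist1 changed sign with lymphocyte (0.011) and endothelial markers (0.063) as a covariate. Zeb2 did so with lymphocyte (0.15), adipocyte (0.016), endothelial (0.14) and lymphocyte plus adipocyte markers (0.11) and without the 2 lymphocyte-poor mice (0.038). Leaving out each mouse, the ranges were -0.53 to -0.37 for Snai1, -0.034 to 0.14 for Snai2 (below 0 without AAV-GFP mouse S_2014 at -0.034 or S_2022 at -0.012, or AAV-Notum mouse S_2042 at -0.022), -0.44 to -0.22 for Twist1, -0.56 to -0.41 for Twist2, -0.017 to 0.070 for Zeb1 (below 0 without AAV-Notum mouse S_2042) and -0.27 to -0.06 for Zeb2. The count of members lower at an unadjusted p under 0.05, 2 in the main test, was 1 with the filter of at least 1 read or fibroblast markers, 0 with endothelial markers, and 1 to 2 without single mice. Genes called lower and higher, 8 and 0 in the main test, were 367 and 84 with DESeq2, 13 and 1 with RLE, 14 and 1 with at least 10 reads in every mouse, 80 and 12 with adipocyte markers, 26 and 3 with lymphocyte plus adipocyte markers, and 10 and 1 with the reads behind the normalized table. Genes called lower were 5 with at least 1 read, 4 with lymphocyte or fibroblast markers, 14 with macrophage markers, 3 with endothelial markers and 1 without the lymphocyte-poor mice. Without single mice they ran from 1 (AAV-Notum mouse S_2033) to 146 (AAV-GFP mouse S_2022) lower and from 0 to 12 higher. The paralogue ratio differences without the lymphocyte-poor mice were -0.54 for Snai1 to Snai2, 0.37 for Twist1 to Twist2 and -0.027 for Zeb1 to Zeb2, and without single mice -0.62 to -0.37, 0.12 to 0.30 and 0.10 to 0.29. Pairs of members with an adjusted p under 0.05 numbered 1, and 2 without the lymphocyte-poor mice. With the longest transcript, 4 of 5 neighbours kept their order. The cause of these shifts was not tested. No paired analysis was possible because the groups share no replicate numbers. Reads limit the Snai genes most, at 35 to 100 per mouse.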

Other observations

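Snai3, the remaining Snai paralogue, lies outside the 6 genes and was looked at after their values were seen. It had 1 to 50 reads per mouse, with 0.0596, 0.534 and 2.65 CPM in the lowest, median and highest AAV-GFP mouse and 0.842, 1.82 and 2.62 CPM in AAV-Notum mice. The groups differed by 0.87 on the log2 scale (SE 0.67, unadjusted p = 0.217, adjusted p = 0.505 from edgeR's quasi-likelihood test), within the spread between mice.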
